A study of Mus musculus with 6 samples.

Results

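The genes described here encode the mTOR kinase and its partner subunits, the TSC complex and RHEB that switch the kinase off and on, and the PI3K and AKT enzymes that feed it, together with a few regulators of these. They were followed in splenic T cells of mice given rapamycin or phosphate-buffered saline (PBS). A list of 32 genes was fixed by symbol, and each gene was represented by the probe set that names it alone and has the highest mean over the 6 arrays. Of the 32, 31 have such a probe set among the 19938 genes of the table. The exception is Rps6kb1, the S6 kinase best known as an mTORC1 substrate, which is not analysed here.

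The rapamycin group held 3 B6D2F1/J mice injected intraperitoneally with 1.5 mg/kg of the drug on alternate days up to day 10 after transplantation, and the PBS group held 3 B6D2F1/J mice injected with PBS on the same schedule. All 6 were lethally irradiated and received T cell-depleted bone marrow of B6 mice, a parental strain of the hybrid. Some recipients in the protocol also got spleen cells of B6 mice. For these 6 mice that is not stated, nor is the donor or host origin of the T cells. CD3+ cells were sorted from each spleen on day 10, so CD4 and CD8 cells, regulatory cells and all other CD3+ cells are measured as a mixture, with 1 whole-transcript array per mouse.

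As background, mTOR is a kinase that works in a pair of complexes. mTORC1, built on Raptor, sits at the lysosome and drives protein and lipid synthesis and holds back autophagy. mTORC2, built on Rictor, phosphorylates AKT and SGK1. In T cells the antigen receptor, CD28 and IL-2 activate PI3K, whose lipid product recruits PDK1 and AKT. AKT then relieves the brake that TSC puts on RHEB, the activator of mTORC1. Rapamycin bound to the immunophilin FKBP12 blocks mTORC1 acutely and can impair the assembly of mTORC2 when given for long. These events are changes of protein activity, and the arrays measure transcript levels only.

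Values are log2 expression, differences are rapamycin minus PBS, and errors of group means are SD with n = 3 each. Differences were tested with limma over all 19938 genes, and a call is an adjusted p under 0.05. The number of arrays limits the precision.

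The sorted cells carried the markers of T cells in both groups. Cd3e, the epsilon chain of the CD3 complex, measured 12.84 ± 0.08 in rapamycin mice and 12.87 ± 0.05 in PBS mice. The mean of 9 T cell genes lay between 11.16 and 11.40 in rapamycin mice and between 11.15 and 11.40 in PBS mice. Transcripts of other cells were also present. The mean of 16 neutrophil genes ran from 8.57 to 9.62 in rapamycin mice and from 8.04 to 9.25 in PBS mice, with 14 of the 16 differences positive. That of 9 monocyte and macrophage genes ran from 8.21 to 8.67 in rapamycin mice and from 8.59 to 8.99 in PBS mice, with 7 of 9 negative, and PBS replicate 1 was the highest of the 6. Spic, a transcription factor of red pulp macrophages, measured 5.70 ± 0.18 in rapamycin mice and 7.05 ± 0.42 in PBS mice, the largest difference of the 9. The list was uneven: Vcam1 differed by -0.90, C1qa by -0.56 and C1qc by -0.50, while Adgre1 differed by 0.10, Ccr2 by 0.00, and Csf1r and Cd68 by -0.01 each. The mean of 8 B cell genes stayed between 5.44 and 5.55 in rapamycin mice and between 5.48 and 5.60 in PBS mice. That of 7 erythroid genes lay between 6.23 and 6.61 in rapamycin mice and between 6.06 and 6.30 in PBS mice. That of 5 NK cell genes lay between 5.28 and 5.42 in rapamycin mice and between 5.26 and 5.61 in PBS mice. Besides Spic, the groups did not overlap for Cd79b of the B cell list, at -0.54, or Ncr1 of the NK list, at -0.24. The same held for Cd5 of the T cell list, at -0.19, and for Chil3 of the neutrophil list, at 0.62. Log2 values of this kind have no zero, so no marker can be called absent. In such sorted mixtures, fewer cells of a type and less RNA per cell cannot be told apart.

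The comparison asked how the transcripts of the drug's own pathway differ when the recipient is given rapamycin. None of the 31 genes passed the test: 0 were called, with adjusted p values of 0.9998 to 0.9999 in limma, where 0.00502% of all genes were called (a single gene, Glp1r). At an unadjusted p under 0.05 there was 1 member, Lamtor1, lower with rapamycin, which is 3.23% of the 31 against 4.67% of all genes. The differences ran from -0.33 for Prr5l, or 0.796 times the PBS level, to 0.14 for Pik3ca. Their median was -0.05, against -0.01 over all genes. In 22 of the 31 the difference was negative, where 55.3% of all genes had a negative one.

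The 95% intervals, each taken for a single gene and not jointly, limit how large each difference could be. For 30 of the 31 genes the 95% interval of the difference lay wholly within 0.5 log2 of no difference, and for all genes that share was 91.6%. The exception was Prr5l. In 23 members, or 74.2%, the difference itself was under 0.1 log2, against 67.1% of all genes. In 23 members it was also no larger than the larger SD of the groups. The 8 members beyond that SD were Tti1, Tsc2, Rps6kb2, Pdpk1, Sgk1, Pik3ca, Pik3cg and Lamtor1. The share beyond it was not taken over all genes, so whether these 8 stand out was not tested.

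**Figure D1:**
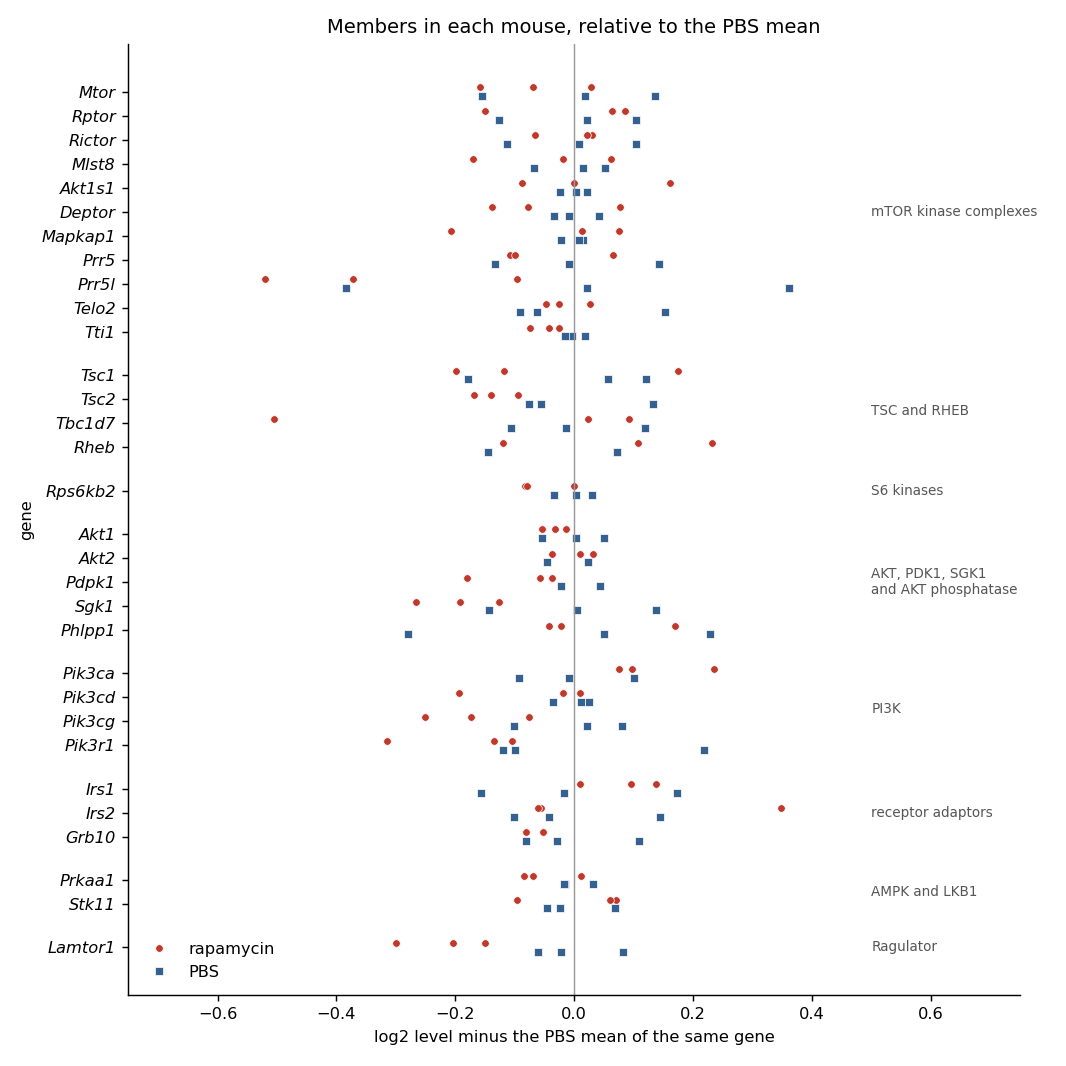
Each of the 31 genes is a row, and each point is a mouse (circles for rapamycin, squares for PBS) at its log2 level minus the PBS mean of that gene. Circles and squares mix in most rows, and the circles lie wholly to the left of the squares in 4 rows, Tti1, Tsc2, Pdpk1 and Lamtor1.

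The groups did not overlap for 4 of the 31 genes, or 12.9%, against 9.42% of all genes, and in each of the 4 the rapamycin mice were the lower ones, as in 6.28% of all genes. They were Tti1, Tsc2, Pdpk1 and Lamtor1, and they are described with their complexes. All rapamycin mice lay above all PBS mice in 0 members, against 3.14% of all genes. The lowest of the 6 values came from rapamycin replicate 1 in 11 members, from rapamycin replicate 3 in 7, from rapamycin replicate 2 in 4, from PBS replicate 1 in 5, and from PBS replicates 2 and 3 in 2 each. The median member lay -0.06, -0.02 and -0.07 from the PBS mean in rapamycin replicates 1, 2 and 3, and 0.01, -0.02 and -0.01 from it in PBS replicates 1, 2 and 3. These counts and medians of single arrays were not taken over all genes, so whether they are particular to the members was not tested. Limma's array weights, fitted over all genes and lower for more variable arrays, were 0.471 for rapamycin replicate 1 and 0.8646 to 1.449 for the other mice.

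The kinase itself, Mtor, measured 8.47, 8.37 and 8.28 in rapamycin mice, against 8.46, 8.58 and 8.29 in PBS mice. The groups overlapped, and PBS replicate 2 alone lay above every rapamycin mouse. The difference was -0.07 (SE 0.10, 95% interval -0.29 to 0.16). Rptor, the Raptor scaffold that brings substrates to mTORC1, measured 8.62, 8.64 and 8.40 in rapamycin mice, against 8.58, 8.66 and 8.43 in PBS mice. Its group means were equal to 2 decimals, at 8.55 ± 0.13 in rapamycin mice and 8.55 ± 0.12 in PBS mice, and the interval of the difference ran from -0.22 to 0.22. Rictor, the scaffold of mTORC2, measured 8.84, 8.83 and 8.74 in rapamycin mice, against 8.81, 8.91 and 8.69 in PBS mice, again with full overlap and an interval of -0.20 to 0.19.

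The shared and complex-specific subunits were as close. Mlst8, which encodes the subunit that stabilises the kinase in both complexes, differed by -0.04 (SE 0.09). The negative regulators were Akt1s1, encoding the AKT substrate PRAS40 that restrains mTORC1, at 0.02 (SE 0.09), and Deptor, an inhibitor of both complexes, at -0.05 (SE 0.08). Of the mTORC2 subunits, Mapkap1, which encodes SIN1, differed by -0.04 (SE 0.09) and Prr5, which encodes Protor-1, by -0.05 (SE 0.10). In rapamycin replicate 1 Mapkap1 was the lowest of the 6 at 8.86, while the other 5 mice lay between 9.04 and 9.14.

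Prr5l, which encodes Protor-2, the other Protor subunit of mTORC2, had the most negative difference and the widest spread of the members. It measured 6.47, 6.62 and 6.90 in rapamycin mice, against 7.02, 6.61 and 7.36 in PBS mice. PBS replicate 2 lay among the rapamycin mice, so the groups overlapped. The difference was -0.33 (SE 0.18, 95% interval -0.75 to 0.09, unadjusted p = 0.110). It was -0.52 without PBS replicate 2 (unadjusted p = 0.0118) and -0.15 without PBS replicate 3 (unadjusted p = 0.390).

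Telo2 and Tti1 encode chaperone partners that fold mTOR and related kinases. Telo2 differed by -0.01 (SE 0.09), with overlapping groups. Tti1 was the most tightly measured member, at 9.41, 9.39 and 9.36 in rapamycin mice, against 9.43, 9.42 and 9.45 in PBS mice. All rapamycin values lay below all PBS values, but the difference was only -0.05 (SE 0.07, unadjusted p = 0.520), since limma's error borrows from the spread of all genes.

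**Figure D2:**
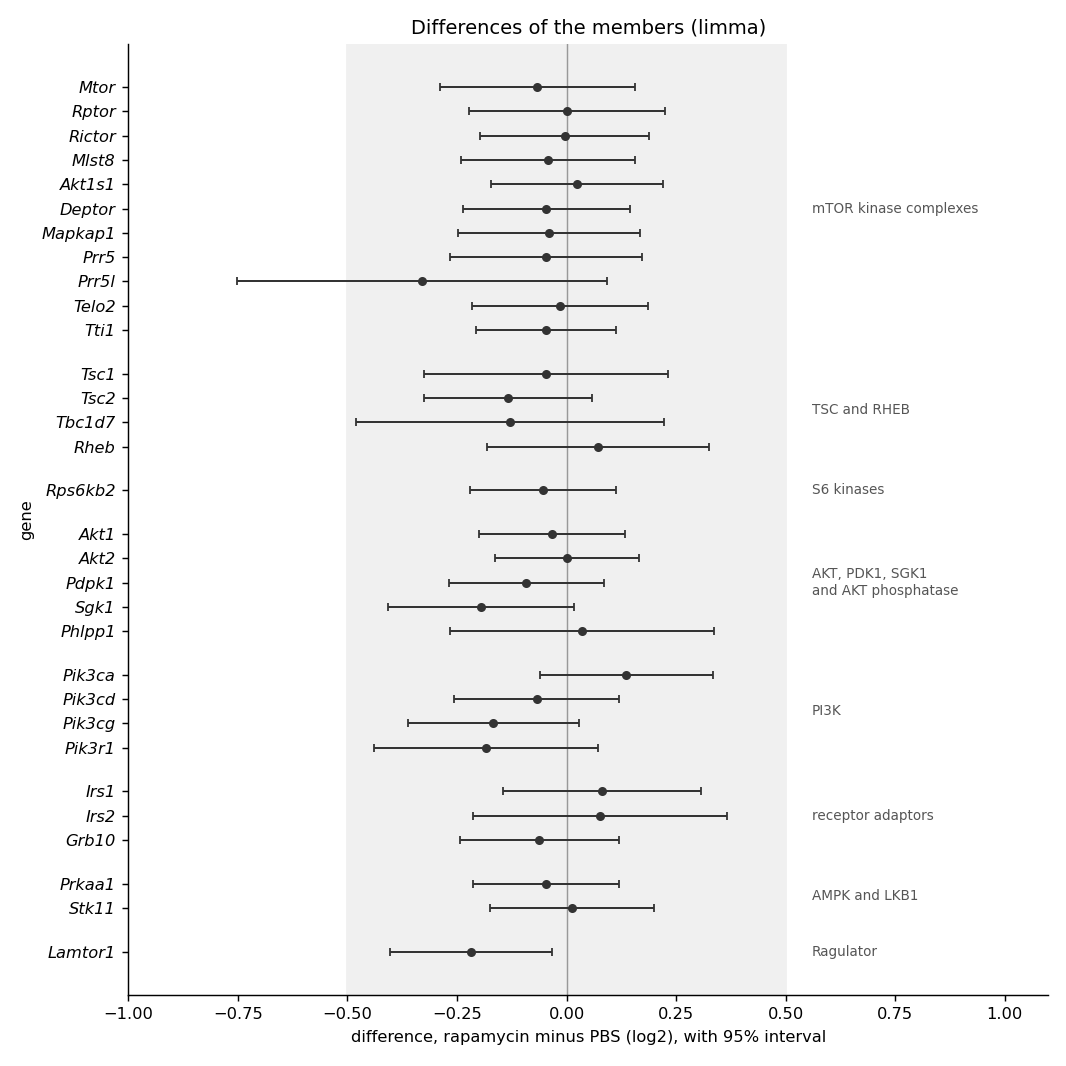
Points are the differences of the 31 genes (rapamycin minus PBS, log2), bars are 95% intervals of limma's fit, and the grey band spans 0.5 log2 on either side of 0. The intervals of 30 genes lie in the band, that of Prr5l reaches -0.75, and that of Lamtor1 does not include 0.

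The TSC complex turns RHEB off and so restrains mTORC1. Tsc2, its GTPase-activating subunit, measured 8.85, 8.88 and 8.93 in rapamycin mice, against 9.15, 8.94 and 8.96 in PBS mice. The rapamycin mice all lay lower, the nearest mice of the groups were close, and PBS replicate 1 was the highest. The difference was -0.13 (SE 0.08, 95% interval -0.33 to 0.06, unadjusted p = 0.149). It was -0.07 without PBS replicate 1 and -0.03 with the mean of the monocyte and macrophage genes as a covariate, a setting chosen after the data were seen. That mean itself differed by -0.38 between the groups, so this covariate overlaps with the group term. A change of a difference or p under it cannot be told apart from that overlap. Tsc1, which stabilises TSC2, measured 8.04, 7.75 and 7.67 in rapamycin mice, against 7.99, 7.92 and 7.69 in PBS mice, with overlapping groups and a difference of -0.05 (SE 0.12).

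Tbc1d7, the third subunit of the complex, stood apart in a single mouse. It measured 8.09, 8.62 and 8.69 in rapamycin mice, against 8.58, 8.49 and 8.72 in PBS mice. The difference was -0.13 (SE 0.15) with all mice and 0.06 without rapamycin replicate 1. Rheb, the small GTPase that activates mTORC1 at the lysosome, measured 9.14, 9.49 and 9.37 in rapamycin mice, against 9.33, 9.12 and 9.33 in PBS mice. The groups overlapped, and its difference of 0.07 (SE 0.11) had the opposite sign to those of the 3 TSC genes. Of the S6 kinases, which mTORC1 phosphorylates, Rps6kb2 was measured and differed by -0.05 (SE 0.07).

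Among the PI3K genes the difference was negative in 3 of 4. Pik3cd, the delta catalytic subunit that is typical of leukocytes, measured 10.67, 10.64 and 10.47 in rapamycin mice, against 10.67, 10.68 and 10.62 in PBS mice. Rapamycin replicate 3 was the lowest mouse while the others lay among the PBS mice. The difference was -0.07 (SE 0.08), and -0.15 with the macrophage genes as a covariate. Pik3r1, which encodes the regulatory subunit that docks the enzyme to receptors, measured 9.39, 9.21 and 9.42 in rapamycin mice, against 9.74, 9.40 and 9.42 in PBS mice. PBS replicate 1 was the only mouse well above the others, and the difference was -0.18 (SE 0.11) with all mice and -0.08 without that mouse. With the macrophage genes as a covariate it was 0.01.

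Pik3cg, the gamma catalytic subunit that responds to chemokine receptors, measured 10.25, 10.07 and 10.15 in rapamycin mice, against 10.40, 10.34 and 10.22 in PBS mice. The lowest PBS mouse lay just under the highest rapamycin mouse, and the difference was -0.17 (SE 0.09, unadjusted p = 0.0852). Pik3ca, the alpha catalytic subunit found in most cells, went the other way, with the largest positive difference of the members. It measured 9.67, 9.83 and 9.69 in rapamycin mice, against 9.50, 9.70 and 9.59 in PBS mice. The groups overlapped through PBS replicate 2, and the difference was 0.14 (SE 0.09, unadjusted p = 0.152).

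The AKT genes had differences near 0. Akt1 measured 10.68, 10.70 and 10.72 in rapamycin mice, against 10.74, 10.68 and 10.79 in PBS mice, a difference of -0.03 (SE 0.07, 95% interval -0.20 to 0.13). Akt2 differed by 0.00 (SE 0.07). The table holds 2 probe sets for Akt2, with differences of 0.00 and -0.07, and a RefSeq pseudogene, Akt2-ps, exists, so what the brighter probe set measures is uncertain. The probe set numbers of most members are grouped by chromosome. By number the brighter one for Akt2 falls nearest that of Rptor on chr11, where Akt2-ps lies. The other falls nearest that of Akt1s1 on chr7, where Akt2 lies. Phlpp1, a phosphatase that removes an activating phosphate from AKT, differed by 0.03 (SE 0.13).

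Pdpk1, which encodes PDK1, the kinase that activates AKT, SGK1 and S6 kinase, measured 10.07, 10.22 and 10.20 in rapamycin mice, against 10.23, 10.23 and 10.30 in PBS mice. The groups did not overlap, though their nearest mice were close, and the difference was -0.09 (SE 0.08, unadjusted p = 0.267). It was -0.05 without rapamycin replicate 1 and -0.08 with the macrophage genes as a covariate. Sgk1, the serum- and glucocorticoid-induced kinase that mTORC2 activates, measured 7.63, 7.55 and 7.69 in rapamycin mice, against 7.96, 7.68 and 7.82 in PBS mice. PBS replicate 2 fell just inside the rapamycin range. The difference was -0.19 (SE 0.09, 95% interval -0.41 to 0.02, unadjusted p = 0.0676). It was -0.13 without PBS replicate 1 and -0.07 with the macrophage genes as a covariate.

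**Figure D3:**
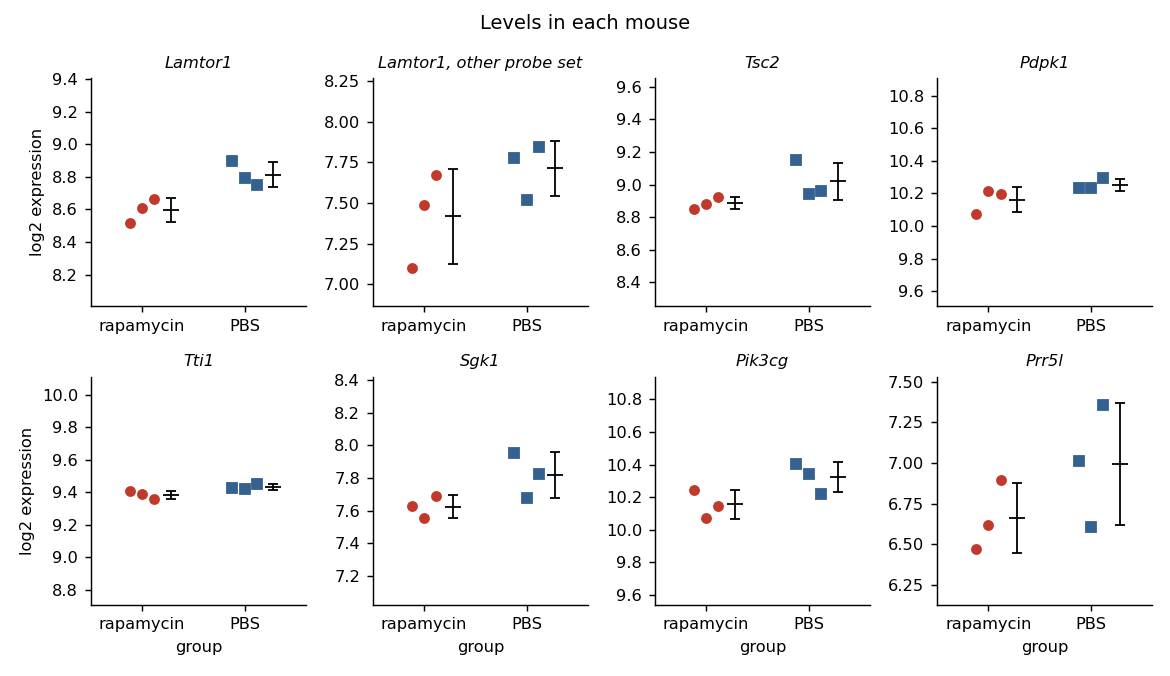
Log2 levels of 7 genes in each mouse (circles for rapamycin on the left, squares for PBS on the right), with the second probe set of Lamtor1 beside the first. Bars are mean ± SD of 3 mice, and every panel spans the same height in log2. The groups do not overlap for the first probe set of Lamtor1, Tsc2, Pdpk1 and Tti1. A single PBS mouse lies within the rapamycin range for the second probe set of Lamtor1, Sgk1, Pik3cg and Prr5l. All genes shown have negative differences, and Pik3ca, with the largest positive one, is not shown.

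The adaptors that link receptors to PI3K had small differences of either sign. Irs1 and Irs2, the insulin receptor substrates, both differed by 0.08 (SE 0.10 for Irs1 and 0.13 for Irs2). For Irs2 this rested on rapamycin replicate 3, at 6.98 where the other 5 mice lay between 6.53 and 6.77. The 2 probe sets of Irs1 had differences of opposite sign, 0.08 and -0.13. Grb10, an adaptor that mTORC1 stabilises and that dampens insulin signalling, differed by -0.06 (SE 0.08). Irs1 and Grb10 lay at mean levels of 5.53 and 4.69 in rapamycin mice and 5.45 and 4.76 in PBS mice, below the array medians of 6.03 to 6.17 over all probe sets, and their detection above background was not assessed.

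AMPK, which senses low energy, and its activating kinase LKB1 restrain mTORC1. Prkaa1, the alpha-1 catalytic subunit of AMPK, measured 9.23, 9.33 and 9.25 in rapamycin mice, against 9.30, 9.30 and 9.35 in PBS mice, with overlapping groups and a difference of -0.05 (SE 0.07). Stk11, which encodes LKB1, differed by 0.01 (SE 0.08).

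Lamtor1 had the smallest p of the members. It encodes the lipid-anchored subunit of Ragulator, the scaffold that holds the Rag GTPases and, with amino acids, mTORC1 on the lysosome. It measured 8.51, 8.61 and 8.66 in rapamycin mice, against 8.90, 8.79 and 8.75 in PBS mice. All rapamycin mice lay below all PBS mice, and the means were 8.60 ± 0.08 in rapamycin mice and 8.81 ± 0.07 in PBS mice. The level with rapamycin was 0.860 times that with PBS, a difference of -0.22 (SE 0.08, 95% interval -0.40 to -0.03, unadjusted p = 0.0260), and the adjusted p of 0.9998 was far from a call.

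A second probe set also names Lamtor1 alone. It measured 7.10, 7.48 and 7.67 in rapamycin mice, against 7.77, 7.52 and 7.84 in PBS mice. Its groups overlapped through PBS replicate 2, and its difference was -0.29, of the same sign as the first. Positions of the 2 probe sets were not available, so what the brighter one measures is uncertain, as for Akt2. By number the brighter one falls nearest that of Rps6kb2 on chr19. The second, with overlapping groups, falls nearest that of Akt1s1 on chr7, where Lamtor1 lies. The difference of Lamtor1 stayed negative under all 16 alternative settings, between -0.26, with both probe sets averaged, and -0.12. Its unadjusted p was under 0.05 in 10 of the 16. Among the others were the fits without rapamycin replicate 1 (unadjusted p = 0.0723), without rapamycin replicate 2 (unadjusted p = 0.0517), without PBS replicate 1 (unadjusted p = 0.0958), and with array medians subtracted (unadjusted p = 0.0670). With the macrophage genes as a covariate, which overlaps with the group term, the difference was -0.12 (unadjusted p = 0.319). With the mean of the neutrophil genes as a covariate it was -0.23 (unadjusted p = 0.0328). PBS replicate 1 was the highest mouse for the macrophage genes and for the first probe set of Lamtor1, but PBS replicate 3 was the highest for the second, and whether those cells account for the difference was not tested.

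The RefSeq promoter windows of Lamtor1, the member with the smallest p, and of Mtor, the target of the drug, are shown for the letters of factors that the pathway controls. Each window holds the 250 bases before the gene's start in build GRCm38.p6, on the + strand, 5′ to 3′. They lie at chr7:101905587-101905836 for Lamtor1 and chr4:148448332-148448581 for Mtor. Capitals mark CACGTG, the E-box that TFEB, which mTORC1 keeps out of the nucleus, and MYC can bind.
Lamtor1: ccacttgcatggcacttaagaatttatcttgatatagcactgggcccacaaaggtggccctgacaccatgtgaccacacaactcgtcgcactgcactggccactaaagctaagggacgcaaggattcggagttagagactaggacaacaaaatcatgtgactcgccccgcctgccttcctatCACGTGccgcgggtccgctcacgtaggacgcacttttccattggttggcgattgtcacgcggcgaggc
Mtor: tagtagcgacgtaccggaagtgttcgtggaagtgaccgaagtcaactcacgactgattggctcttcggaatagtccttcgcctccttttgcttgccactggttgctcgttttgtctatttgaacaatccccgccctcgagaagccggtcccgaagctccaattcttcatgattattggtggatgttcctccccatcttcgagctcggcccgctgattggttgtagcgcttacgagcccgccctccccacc

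The Lamtor1 window holds 1 E-box, whose first base lies 68 bases before the start, and the Mtor window holds 0. The E-box reads the same on both strands. A second motif, GTAAACA, the letters of FOXO factors, which AKT keeps out of the nucleus, was searched on both strands and occurs in neither window. It can share at most 2 bases with an E-box at their edges. Over all members, 30 have a window, and 6 of them hold an E-box in at least 1 window: Tbc1d7, Rheb, Sgk1, Irs1, Irs2 and Lamtor1. Their differences were of either sign, from -0.22 for Lamtor1 to 0.08 for Irs1. An E-box occurs in 6.02% of all 32851 windows and in a window of 6.86% of all 27025 genes. The FOXO letters occur in windows of 3 members, Mapkap1, Akt1 and Pik3cg, out of 30, and in those of 3.54% of all genes, or 3.17% of all windows. These matches describe the sequence only.

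The other genes of the pathway were taken from lists of 70 further symbols, of which 66 were measured. None of them passed the test: 0 were called in limma, and 6 had an unadjusted p under 0.05. All 6 were lower with rapamycin, which is 9.09% of the 66, where 3.07% of all genes were lower and 1.6% higher at this level. The lists were drawn up with earlier results of these data known, S1pr1 among them, so counts from these lists are no independent evidence of a direction. The groups did not overlap in 10 of the 66, or 15.2%, again all lower, where 9.42% of all genes had groups without overlap and 6.28% were lower in this way. The median difference of the 66 was -0.05, close to that of the 31 members.

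Within PI3K, the 10 further subunits and adaptors held 2 of the 6 genes. Pik3r5, a regulatory partner of the gamma subunit described above, measured 10.52, 10.36 and 10.50 in rapamycin mice, against 11.25, 10.65 and 10.69 in PBS mice. The groups did not overlap, PBS replicate 1 was far the highest, and the difference was -0.40 (SE 0.15, unadjusted p = 0.0296). It was -0.21 without PBS replicate 1 and -0.14 with the macrophage genes as a covariate. Pik3r3, a regulatory subunit, measured 4.90 ± 0.05 in rapamycin mice and 5.12 ± 0.07 in PBS mice, a difference of -0.22 (unadjusted p = 0.0202) at a level below the array medians. With the macrophage genes as a covariate its difference was -0.16. Pik3r6, another regulatory subunit of the list, had overlapping groups and differed by 0.08 (SE 0.17).

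The gene furthest from 0 in these lists was Lpin1, which encodes a phosphatidate phosphatase and regulator of lipid genes that mTORC1 phosphorylates. It measured 7.87, 7.58 and 7.49 in rapamycin mice, against 8.90, 8.08 and 8.47 in PBS mice. The groups did not overlap, and the rapamycin mean was 0.561 times the PBS level. The difference was -0.83 (SE 0.19, 95% interval -1.27 to -0.39, unadjusted p = 0.00230, adjusted p = 0.8145). It lay between -1.03 and -0.63 under the 16 alternatives, -0.63 being the value without PBS replicate 1 and -0.72 that with the macrophage genes as a covariate. Of the 12 other measured substrates and outputs of mTORC1 and S6 kinase, 0 had an unadjusted p under 0.05. They include Eif4ebp1, the translation repressor 4E-BP1, and Rps6, the ribosomal protein that S6 kinase phosphorylates.

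FOXO factors act downstream of AKT. Of the 12 measured genes of that list 10 had negative differences, where 55.3% of all genes had one. The list was drawn up with the result of S1pr1 known, so this count is no independent evidence of a direction. Foxo1, which maintains naive T cells, measured 9.02, 8.86 and 8.75 in rapamycin mice, against 9.20, 9.15 and 9.10 in PBS mice, without overlap and with a difference of -0.27 (SE 0.09, unadjusted p = 0.0152). S1pr1, the receptor for egress from lymphoid organs, measured 10.36, 10.12 and 10.18 in rapamycin mice, against 10.88, 10.58 and 10.59 in PBS mice, also without overlap and with a difference of -0.46 (SE 0.11, unadjusted p = 0.00243, adjusted p = 0.8145). Klf2, the factor that activates S1pr1 in naive T cells, had overlapping groups and differed by -0.29 (SE 0.12, unadjusted p = 0.0392). With the macrophage genes as a covariate Foxo1 differed by -0.34, S1pr1 by -0.37 and Klf2 by -0.22. Other targets on the list, Ccr7 and Il7r, differed by -0.10 (SE 0.24) and -0.02 (SE 0.17). The 2 genes with positive differences were Txnip, at 0.19 (SE 0.18), and Bcl6, at 0.16 (SE 0.10), both with overlapping groups.

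The remaining lists held 0 genes at an unadjusted p under 0.05. The Ragulator partners of Lamtor1 and the Rag GTPases, 8 genes, lay between -0.08 and 0.10, and the 1 with the smallest p, Rragd, differed by 0.10 (SE 0.11) with all mice and -0.01 without rapamycin replicate 3, at a level below the array medians. Among AMPK and LKB1 partners it was Prkag1, a gamma subunit, at -0.16 (SE 0.08), whose groups did not overlap. Gsk3b, a kinase inhibited by AKT, differed by -0.14 (SE 0.07), likewise without overlap. Of 4 phosphoinositide phosphatases the closest to a call was Inppl1, which encodes SHIP2, at -0.07 (SE 0.07). Fkbp1a, which encodes the rapamycin receptor FKBP12, measured 9.93, 9.90 and 9.92 in rapamycin mice, against 9.94, 10.03 and 10.08 in PBS mice, a difference of -0.10 (SE 0.08). Its rapamycin mice were all lower, with the nearest mice of the groups almost level. With the macrophage genes as a covariate its difference was -0.15.

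**Figure D4:**
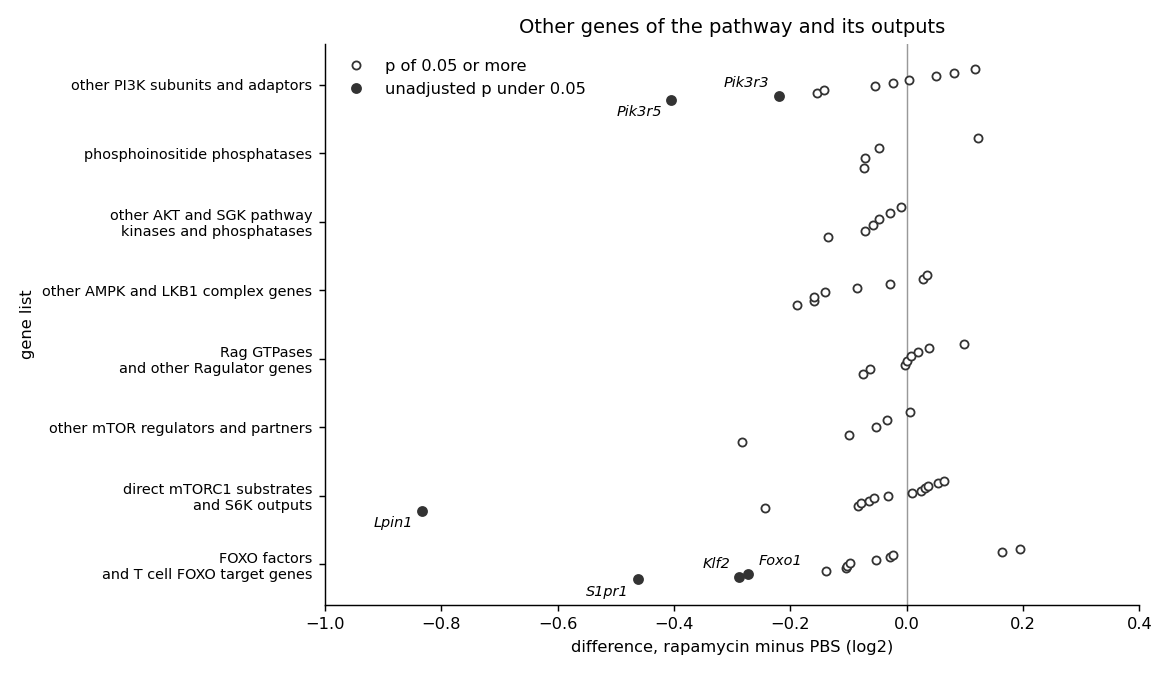
Each point is a gene of the 8 further lists, placed at its difference (rapamycin minus PBS, log2). Filled points, all left of 0 and labelled, are the 6 genes at an unadjusted p under 0.05, and Lpin1 lies furthest out at -0.83.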

How the data were processed

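RNA of CD3+ spleen cells was hybridised to 6 whole-transcript arrays, 3 per group. Group and replicate number come from the sample titles. The authors deposited log2 expression per probe set, made with Affymetrix Expression Console and RMA, per the submitters' processing notes. Their versions and the genome build: not given in the sources used here. RMA normalises arrays against each other, which can remove a shift shared by most genes. The medians of the deposited arrays still differed slightly, from 6.03 to 6.17.

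Of 35556 probe sets, 21789 name exactly 1 gene in the platform's probe table, and the highest mean per gene gave 19938 genes. Differences were fitted on group alone (limma 3.58.1 under R 4.3.3, moderated and two-sided) with Benjamini-Hochberg adjustment over all genes and intervals at the 95% level. The fit was tested on simulated data with planted changes far larger than the differences of the members. That test does not bear on differences of the members' size.

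The members, lists and markers were chosen with earlier results of these data known. All members are named. Values in every array are given for members whose groups do not overlap or whose unadjusted p is under 0.05. They are also given for 12 listed ones, except Rps6kb1, which has no probe set that names it alone. From each further list the genes at an unadjusted p under 0.05, or otherwise the 1 with the smallest p, are named. Array values of Prr5l, Tbc1d7, Pik3cg, Pik3ca, Sgk1 and Fkbp1a, and the remarks on single mice for Mapkap1 and Irs2, were chosen after the values were seen. So were the naming of Eif4ebp1, Rps6, Ccr7, Il7r, Txnip, Bcl6, Pik3r6 and single marker genes, and the genes shown with the macrophage covariate. Alternatives changed the filter, probe sets, variance model, weights, scaling, a marker covariate, a replicate block and the mice included.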

Additional observations from a re-analysis of the deposited data

How the results depend on the processing

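Of the 31 members, 0 were called with limma under each of the 16 alternatives, Irs1 and Grb10 being tested in 15, since the filter on the lowest 50% of genes removes them, and their lowest adjusted p was 0.5491. The count at an unadjusted p under 0.05, 1 with all mice, was 3 with array weights, 0 with array medians subtracted, 3 with the neutrophil genes as a covariate and 0 to 3 with a mouse left out. It was 0 without rapamycin replicate 2 or PBS replicate 1 and 3 without PBS replicate 2 (Lamtor1, Prr5l and Sgk1). With the macrophage genes as a covariate the 1 member was Irs2, at 0.36 (unadjusted p = 0.0142), and without rapamycin replicate 1 it was Pik3cg. The same count among the further pathway genes was 6, and 2 to 8 with a mouse left out, with 3 without rapamycin replicate 2 and 2 without PBS replicate 1. Over all genes 1 was called, and 0 with all probe sets tested, 3 with the neutrophil genes as a covariate (Glp1r, Penk and Scin), 0 with the macrophage genes as a covariate and 0 to 7 with a mouse left out, 7 being without rapamycin replicate 1. With the replicate number as a block, 0 genes were called and 1 member, Prr5l, had an unadjusted p under 0.05, while that of Lamtor1 was 0.0521; the same number marked no shared mouse, and the same-numbered deviations correlated at 0.09, -0.19 and 0.19. In 18 members the sign of the difference changed under at least 1 alternative, and in 13 under none. The cause of these changes was not tested.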
